A study of Mus musculus with 8 samples.

Results

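The Notch genes described here are 10 loci chosen by gene symbol: the receptors Notch1, Notch2 and Notch3, the ligands Jag1 and Dll1, the nuclear factors Rbpj and Maml2, and the target genes Hes1, Hey1 and Heyl. All 10 were found in the RefSeq mouse annotation (GRCm38.p6, the mm10 chromosomes) and all 10 carried enough peaks to be tested, among 27938 genes tested of 34328 considered. Each locus was the annotated gene extended by 10 kb at either end. Chromatin accessibility was measured by ATAC-seq, in which a transposase inserts sequencing adapters into open DNA, in satellite cells, the stem cells of skeletal muscle, from hindlimbs of C57BL/6 mice. There were 8 libraries in 4 groups of 2. QSC were freshly isolated satellite cells and ASC were isolated 2.5 days after injury, both with no treatment. The other 2 groups were put into culture for differentiation, in F10 medium with horse serum, with either a control siRNA or one against LncMyod, which is a long noncoding RNA transcribed near Myod1, the gene of a muscle transcription factor. Treatment with the LncMyod siRNA lasted 48 h, and ATAC-seq does not show how far LncMyod RNA was reduced. No age, kind of injury, or separate animal or culture is named for any library, so the tests see only how far these libraries differ within a group, which may be technical.

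Notch receptors are membrane proteins that are cut when a ligand such as Jag1 or Dll1 on a neighbouring cell binds them. The freed intracellular part enters the nucleus, binds the DNA-binding protein Rbpj together with a Mastermind-like coactivator such as Maml2, and switches on repressor genes of the Hes and Hey families. In muscle the pathway is known for keeping satellite cells quiescent and for holding back differentiation. Peak lists were the data, so the measure of openness was covered length: the base pairs of a locus lying under peaks, scaled to the total covered length of the library and given in scaled kb. Changes between groups are log2 differences of (scaled bp + 500 bp) from a limma fit to all 8 libraries, adjusted over all tested genes by the Benjamini-Hochberg method. "Rose" and "fell" mean an adjusted p under 0.05.

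The libraries held 59666 (ASC replicate 2) to 95449 peaks (LncMyod siRNA replicate 1), covering 42.4 to 64 Mb. Peaks of the cultured libraries were narrower, with a median width of 489 to 530 bp against 588 to 601 bp in QSC and ASC. All 10 satellite cell markers, Pax7 and Myf5 among them, carried peaks in every group. Their summed covered length was 57.8 to 59.9 scaled kb in QSC, 53 to 55.9 in ASC, 52.7 to 53.9 with control siRNA and 45.9 to 49.9 with LncMyod siRNA. Of the leukocyte markers, Ptprc, Itgam and Laptm5 were without a peak in both QSC libraries, Ptprc also in both LncMyod siRNA libraries, and the sum over 7 was 3.56 to 3.94 scaled kb in QSC, 8.2 to 9.83 in ASC, 14.2 to 15 with control siRNA and 11.7 to 15.1 with LncMyod siRNA. Endothelial markers summed to 14.5 to 19.3 scaled kb over all libraries, and fibroadipogenic markers to 8.94 to 14.2 in QSC and ASC and 6.19 to 7.11 in culture. The part of these cell types in the results for the Notch genes was not tested. Differentiated muscle markers such as Myog and Ckm summed to 17.6 to 19.3 scaled kb in QSC and ASC and to 28.4 to 36.8 in culture. In such bulk libraries a smaller share of cells with an open site and a site that is less open in every cell cannot be told apart.

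Promoter sequences for 7 of the 10 genes were given by RefSeq, and 3 genes are shown. Dll1 and Maml2 are shown because peaks separated annotated starts of the same gene. Jag1, whose start was wholly covered in all 8 libraries like those of Notch2 and Rbpj, is shown for its E-box match. They were chosen after the peaks and matches were seen. Each is the 250 bases before an annotated start, read 5′ to 3′ on the strand of the gene, in GRCm38.p6. Capitals mark matches to 2 motifs, the E-box CAGCTG, which MyoD family factors are known to bind, and TGANTCA, the AP-1 motif. The third motif searched, GTGGGAA, is that of Rbpj.
Dll1, start within the gene, chr17:15375824-15376073, minus strand: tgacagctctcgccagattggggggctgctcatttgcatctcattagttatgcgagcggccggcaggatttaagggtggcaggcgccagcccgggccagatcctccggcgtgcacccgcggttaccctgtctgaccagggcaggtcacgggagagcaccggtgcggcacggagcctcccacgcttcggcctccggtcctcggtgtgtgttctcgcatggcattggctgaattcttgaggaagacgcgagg
Dll1, upstream start, chr17:15376933-15377182, minus strand: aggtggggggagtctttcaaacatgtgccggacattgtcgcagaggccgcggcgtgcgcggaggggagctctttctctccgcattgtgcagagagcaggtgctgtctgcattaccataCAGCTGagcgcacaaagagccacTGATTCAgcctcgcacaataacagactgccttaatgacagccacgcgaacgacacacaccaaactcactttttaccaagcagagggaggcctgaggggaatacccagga
Maml2, upstream start, chr9:13297708-13297957, plus strand: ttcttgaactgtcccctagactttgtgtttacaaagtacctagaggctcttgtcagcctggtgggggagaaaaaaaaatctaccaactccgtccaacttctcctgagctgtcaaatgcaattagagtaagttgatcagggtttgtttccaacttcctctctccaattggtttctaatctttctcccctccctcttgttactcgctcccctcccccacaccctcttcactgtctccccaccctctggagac
Maml2, start within the gene, chr9:13662210-13662459, plus strand: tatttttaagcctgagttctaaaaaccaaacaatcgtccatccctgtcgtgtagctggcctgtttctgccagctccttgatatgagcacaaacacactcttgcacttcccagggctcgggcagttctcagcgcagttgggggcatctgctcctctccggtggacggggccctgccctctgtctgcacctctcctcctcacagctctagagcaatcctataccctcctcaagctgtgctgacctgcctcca
Jag1, chr2:137116521-137116770, minus strand: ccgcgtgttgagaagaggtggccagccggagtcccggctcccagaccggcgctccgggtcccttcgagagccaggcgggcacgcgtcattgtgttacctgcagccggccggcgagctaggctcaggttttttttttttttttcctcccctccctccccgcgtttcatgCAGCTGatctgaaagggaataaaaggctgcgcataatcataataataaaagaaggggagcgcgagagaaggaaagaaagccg

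The window of 300 bases around the start (250 before and 50 after) lay wholly under a peak in all 8 libraries for Jag1, Notch2, both Rbpj starts that have a promoter sequence and the Dll1 start within the gene. At the upstream Dll1 start no library had a peak, and the same held for the Maml2 start within the gene. The upstream Maml2 start had 81 to 110 of its 300 bases covered in each library, Notch3 155 to 251 and Notch1 261 to 300. For Maml2, upstream is meant among the printed starts, and both lie inside the annotated gene (chr9:13296561-13709533). The lower end of that gene, its start side, lay under another region, chr9:13296256-13297079, held by all 8 libraries. The E-box stood 82 bases before the Jag1 start. At the upstream Dll1 start the E-box stood 132 bases and the AP-1 match (as TGATTCA) 109 bases before the start. None of the windows of the 7 members with a promoter sequence matched GTGGGAA on either strand. The targets Hes1, Hey1 and Heyl had no sequence here and were not searched. That motif was held by 5.42% of 32851 RefSeq promoters of the same length, against 13% for CAGCTG and 6.75% for TGANTCA. At that share, so few windows cannot show that the members lack it. The printed bases held 48% GC at the upstream Maml2 start and 64% at the Dll1 start within the gene, with a median of 52.4% over all promoters.

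The plot of covered length by library gives all 10 loci. Maml2 and Heyl fell in ASC against QSC, Maml2 rose again in culture with control siRNA, and no other member passed the test in any comparison.

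**Figure D1:**
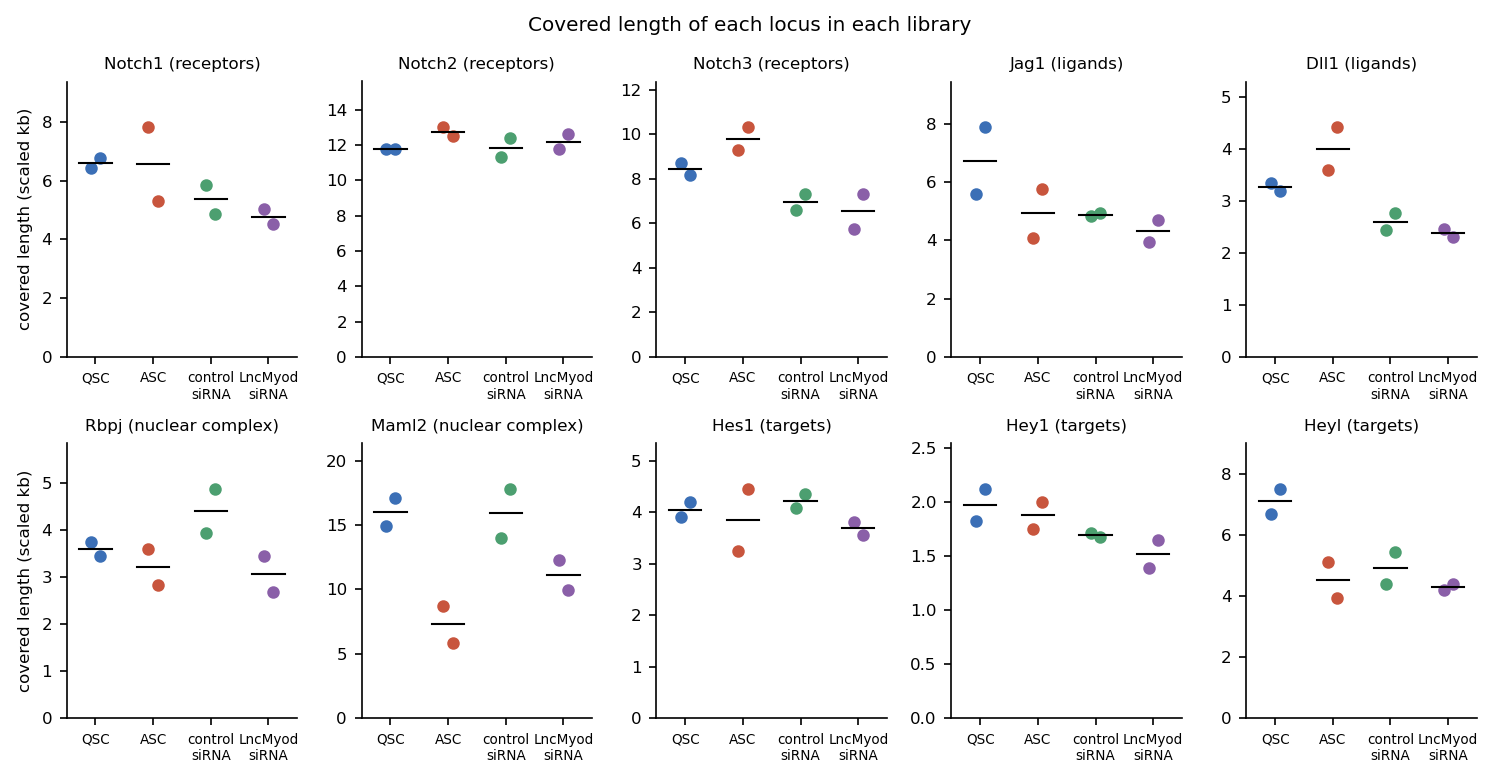
Covered length of each locus (scaled kb, linear axis from 0) in each of the 8 libraries; points are libraries, horizontal lines are means of 2. Maml2 is lowest in both ASC libraries (8.74 and 5.82), and Heyl is highest in both QSC libraries (6.68 and 7.5).

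Of the receptors, Notch2 (chr3:98013538-98150367) was the steadiest. Its locus carried 11.8 and 11.8 scaled kb in QSC, 13 and 12.5 in ASC, 11.3 and 12.4 with control siRNA and 11.8 and 12.6 with LncMyod siRNA. Both ASC libraries lay slightly above both QSC and both control siRNA libraries, and the LncMyod siRNA libraries overlapped them. The log2 change was 0.11 (SE 0.089) in ASC against QSC (limma adjusted p = 0.507), and 12 of its 25 merged regions were held by all 8 libraries. The region at its start had an authors' fold enrichment of 5.54 to 6.71, and the widest region of the locus spanned 4214 bp, centred 12.7 kb into the gene.

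Notch3 (chr17:32120820-32166896), a receptor also known from mural cells of small vessels, carried 8.7 and 8.14 scaled kb in QSC and 9.3 and 10.3 in ASC. It carried 6.58 and 7.31 with control siRNA and 5.76 and 7.29 with LncMyod siRNA. Both ASC libraries were above, and all 4 cultured libraries below, both QSC libraries. The change with control siRNA against ASC was -0.47 (SE 0.13, 95% interval -0.78 to -0.16), which missed the threshold (limma adjusted p = 0.0978). The region of 1052 bp at chr17:32121820-32122871, near the far end of the gene, was held by neither QSC library and by all 6 others. It overlaps the RefSeq gene Gm38585 too, so it cannot be assigned to Notch3 alone.

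Notch1 (chr2:26457902-26503822) carried 6.42 and 6.79 scaled kb in QSC, 7.82 and 5.31 in ASC, 5.85 and 4.88 with control siRNA and 5.03 and 4.52 with LncMyod siRNA. The ASC libraries spanned the QSC values, so the mean of 6.57 ± 1.78 (SD, n = 2) did not differ from 6.61 ± 0.266 beyond the spread. The change in ASC against QSC was -0.03 (95% interval -0.46 to 0.40, limma adjusted p = 0.966). One region inside the gene, chr2:26485186-26486055, was held by all 8 libraries, with an authors' fold of 2.6 and 2.88 in QSC, 4.59 and 2.76 in ASC, 6.56 and 7.34 with control siRNA and 5.36 and 4.52 with LncMyod siRNA. Each fold is relative to the background of its own library, so these are levels within libraries. In all cultured libraries, with either siRNA, and in ASC replicate 1 it was the Notch1 peak of highest fold.

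Among the ligands, Jag1 (chr2:137081451-137116520) carried 5.58 and 7.87 scaled kb in QSC and 4.09 and 5.77 in ASC. It carried 4.83 and 4.92 with control siRNA and 3.94 and 4.7 with LncMyod siRNA. One ASC library lay within the QSC range, whereas both control siRNA libraries lay below it. The changes were -0.41 in ASC against QSC (SE 0.20, limma adjusted p = 0.246) and -0.41 with control siRNA against QSC (SE 0.20, adjusted p = 0.22). A pair of its 11 regions was held by both QSC libraries and no other: chr2:137095369-137095860 inside the gene and chr2:137078904-137079614 in the flank, the latter overlapping Slx4ip. The region chr2:137107785-137108408, 8.42 kb into the gene, was held by both QSC libraries and all 4 cultured ones and by neither ASC library.

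Dll1 (chr17:15367354-15376932), a membrane ligand of the Delta family, carried 3.35 and 3.18 scaled kb in QSC and 3.59 and 4.41 in ASC. It carried 2.44 and 2.76 with control siRNA and 2.45 and 2.31 with LncMyod siRNA. The ASC libraries were the highest and the 4 cultured libraries the lowest, with no overlap. The change with control siRNA against ASC was -0.53 (SE 0.13, 95% interval -0.85 to -0.22) and missed the threshold (limma adjusted p = 0.0752). With the gene body alone, without flanks, the change was -0.79 and passed (limma adjusted p = 0.0283). Of 16 alternative settings this was the only 1 that passed, and the other 15 missed the threshold. The peaks of the locus also differed by place. The region chr17:15371900-15372322 inside the gene was absent from both QSC libraries and present in the 6 others, chr17:15359432-15359764 was held by the 4 cultured libraries only, and chr17:15377945-15378215, 1.15 kb upstream of the nearer start, by the QSC libraries only.

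Rbpj (chr5:53555779-53657445), the DNA-binding partner of every Notch receptor, carried 3.74 and 3.45 scaled kb in QSC and 3.61 and 2.84 in ASC. It carried 3.94 and 4.88 with control siRNA and 3.45 and 2.68 with LncMyod siRNA. Both control siRNA libraries were above all 6 others. The change with LncMyod siRNA against control siRNA was -0.47 (SE 0.17, 95% interval -0.87 to -0.061). It had an unadjusted p of 0.0298 in limma, a level reached by 9.81% of all tested genes in that comparison, and an adjusted p of 0.433. The region over both starts that have a promoter sequence, chr5:53588838-53591375, was the only one of 14 held by all 8 libraries. It lies inside the annotated gene, 33059 bp from the lower end, which is the start side. No merged region covered that end. The region chr5:53557579-53557928, about 2 kb (1.97) inside the lower end of the gene, had an authors' fold of 6.04 and 5.62 with control siRNA and 5.33 in LncMyod siRNA replicate 1 and was held by no other library, while chr5:53658030-53658733 in the flank was held by the control siRNA libraries alone.

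Maml2 (chr9:13296561-13709533), a Mastermind-like coactivator that binds the complex of Notch and Rbpj, is the longest of the genes at 413 kb and carried the most peaks. It held 25 and 26 peaks in QSC, 17 and 12 in ASC, 29 and 31 with control siRNA and 29 and 19 with LncMyod siRNA. Its covered length was 14.9 and 17.1 scaled kb in QSC, 8.74 and 5.82 in ASC, 14 and 17.8 with control siRNA and 12.3 and 9.92 with LncMyod siRNA. Both ASC libraries lay below all 6 others, the QSC and control siRNA libraries overlapped, and both LncMyod siRNA libraries lay between. The mean fell from 16 ± 1.57 to 7.28 ± 2.06 scaled kb (SD, n = 2 each), a log2 change of -1.11 (SE 0.21, 95% interval -1.60 to -0.61, limma adjusted p = 0.0189). It rose to 15.9 ± 2.65 with control siRNA, a change of 1.09 against ASC (SE 0.21, 95% interval 0.59 to 1.59, adjusted p = 0.0405).

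The control siRNA and QSC means of Maml2 differed by -0.015 (95% interval -0.51 to 0.48, limma adjusted p = 0.982). With LncMyod siRNA the change against control siRNA was -0.49 (SE 0.21, 95% interval -0.99 to 0.0036, adjusted p = 0.516). The fall in ASC missed the threshold without QSC replicate 1 (adjusted p = 0.0673), without QSC replicate 2 (0.107), without ASC replicate 2 (0.0687) and without scaling to the library total (0.0903). The rise in culture missed it in 7 of 16 alternative settings, among them leaving out ASC replicate 2 (0.122), control siRNA replicate 1 (0.138) or control siRNA replicate 2 (0.196). The direction of both held in all 16 settings. The mural cell markers (Pdgfrb, Rgs5, Cspg4, Kcnj8, Abcc9, Acta2 and Myh11) differed too: all 7 had peaks in every group, none was at 0, and their sum was 25.4 to 25.9 scaled kb in QSC, 17.5 to 20.8 in ASC, 22.8 to 24.6 with control siRNA and 22 to 23.1 with LncMyod siRNA. Their part in the Maml2 and Heyl results was not tested.

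**Figure D2:**
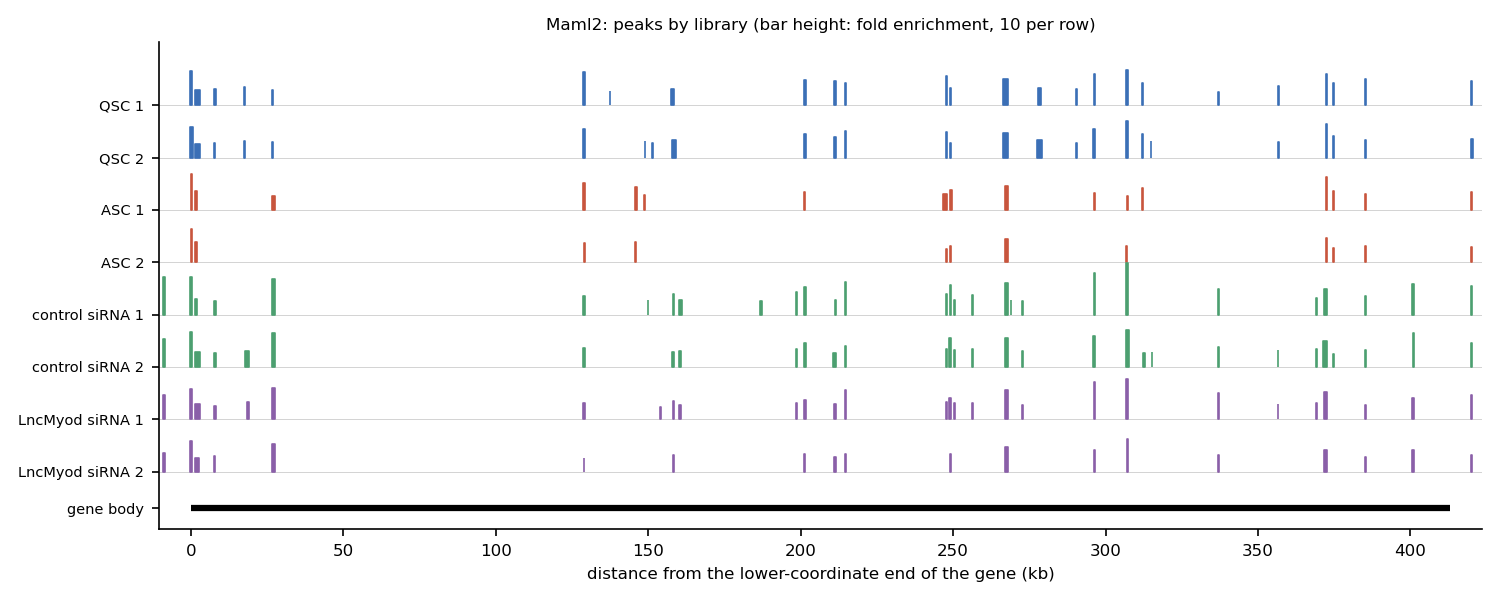
Peaks of each library along Maml2, as distance from the lower-coordinate end of the gene (kb), which is the start side; bar height is the authors' fold enrichment and the black line is the gene body. The ASC rows hold 17 and 12 peaks and lack several that the QSC and control siRNA rows share.

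The map of Maml2 peaks shows where the ASC libraries differed. Of 42 merged regions, 8 (19%) were held by both QSC and neither ASC library and 1 (2.38%) the other way, where 8.54% and 5.99% of all merged regions were. Both control siRNA libraries and neither ASC library held 13 (31%), and 1 (2.38%) was held the other way, where the shares of all regions were 11.7% and 2.64%. Among them, 4 (9.52%, all regions 1.91%) were held by both QSC, both control siRNA and neither ASC library: chr9:13303956-13304806, chr9:13454086-13455711, chr9:13507065-13508205 and chr9:13511019-13511345. All of these lie inside the gene and were held by both LncMyod siRNA libraries too. The single region held by the ASC libraries alone was chr9:13442093-13442706, 146 kb from the lower end of the gene, with an authors' fold of 4.37 and 3.89.

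Of the 42 regions, 2 (4.76%) were held by all 4 cultured libraries and by none of the others, where 4.78% of all merged regions were so held. They were the flank region chr9:13287451-13287931, which overlaps the neighbouring gene Ccdc82, and chr9:13697084-13697793 inside the gene. A further 6 regions were held by both control siRNA libraries and LncMyod siRNA replicate 1 and by no other library, and none of the 42 separated both control siRNA from both LncMyod siRNA libraries. LncMyod siRNA replicate 2 held 79396 peaks in all against 95449 in replicate 1. In the other direction, chr9:13574147-13575689 and chr9:13586922-13587235 were held by the QSC libraries alone. The latter overlaps the RefSeq gene Gm51666, as do 3 further regions. One of these, chr9:13603211-13604113, had the highest authors' fold of the locus in the QSC and cultured libraries (6.71 and 7.01 in QSC, 9.79 and 7.1 with control siRNA, 7.64 and 6.3 with LncMyod siRNA), and its fold in the ASC libraries was 2.71 and 3.01.

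Heyl (chr4:123233556-123249870), a repressor of the Hey family, was the one target gene that passed the test. It carried 6.68 and 7.5 scaled kb in QSC, 5.11 and 3.93 in ASC, 4.38 and 5.43 with control siRNA and 4.18 and 4.4 with LncMyod siRNA. Both QSC libraries lay above all 6 others, which overlapped among themselves. The mean fell from 7.09 ± 0.582 to 4.52 ± 0.835 scaled kb (SD, n = 2 each) in ASC, a log2 change of -0.61 (SE 0.16, 95% interval -0.97 to -0.24, limma adjusted p = 0.0476). With control siRNA the change against QSC was -0.49 (SE 0.16, 95% interval -0.86 to -0.13, adjusted p = 0.0728). The call in ASC was lost in 10 of 16 alternative settings, among them leaving out QSC replicate 1 (adjusted p = 0.127), QSC replicate 2 (0.224) or ASC replicate 2 (0.179). Over the 16 the adjusted p lay between 0.00644 and 0.502, and the direction held in all.

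At Heyl the libraries differed in the width of peaks as well as in their number. The region at the lower end of the gene, chr4:123232404-123234121, was covered over 1.7 and 1.85 scaled kb in QSC, 0.653 and 0.756 in ASC, 0.602 and 0.789 with control siRNA and 0.457 and 0.526 with LncMyod siRNA, although all 8 libraries held it. The authors' fold of this region was not lower in ASC (5.13 and 3.85) than in QSC (3.63 and 3.19). It was 3.44 and 3.31 with control siRNA and 3.4 and 3.77 with LncMyod siRNA. At chr4:123246348-123247747, fold was lower in ASC (2.54 and 2.36) than in QSC (3.27 and 3.48). Inside the gene, chr4:123236660-123237046 was held by the QSC libraries alone. The region chr4:123237500-123238037 was held by both control siRNA libraries and LncMyod siRNA replicate 1. The flank region chr4:123254685-123255089 was held by both QSC, both control siRNA and 1 LncMyod siRNA library and by neither ASC library. The plot of peaks at Heyl, Jag1 and Dll1 shows these differences in place and width.

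**Figure D3:**
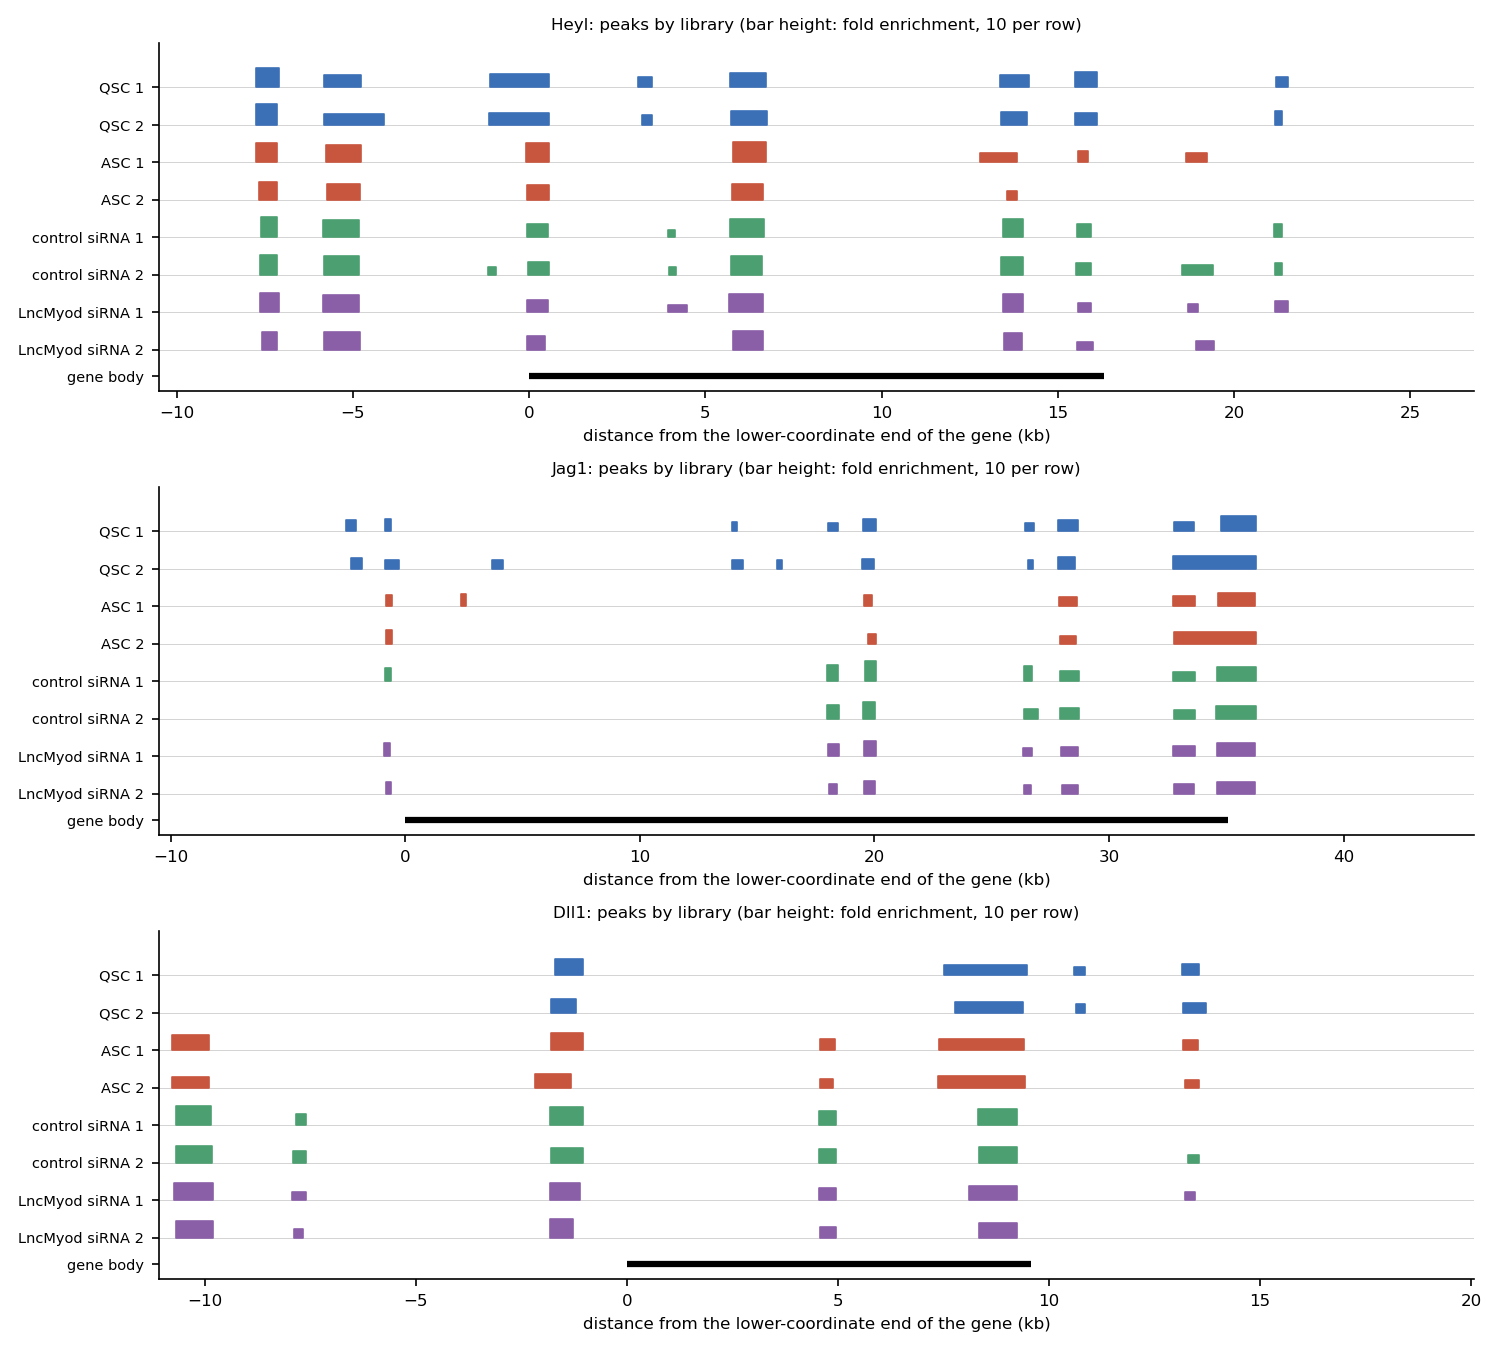
Peaks of each library at Heyl, Jag1 and Dll1, as distance from the lower-coordinate end of each gene (kb); bar height is the authors' fold enrichment and the black line is the gene body. Jag1 and Dll1 lie on the minus strand, so their starts are at the right end of the line; the Heyl peak at 0 kb and the Dll1 peak near 8.43 kb are wider in QSC than with either siRNA.

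Hes1 (chr16:30065357-30067796), a classic Notch target, and Hey1 (chr3:8663359-8667038) passed the test in no comparison. Hes1 carried 3.91 and 4.19 scaled kb in QSC, 3.25 and 4.45 in ASC, 4.07 and 4.36 with control siRNA and 3.81 and 3.56 with LncMyod siRNA. All 4 groups of Hes1 lay within the range of the 2 ASC libraries, and 3 of its 4 regions were held by all 8 libraries. Hey1 carried 1.82 and 2.12 scaled kb in QSC, 1.75 and 2 in ASC, 1.71 and 1.68 with control siRNA and 1.39 and 1.65 with LncMyod siRNA. It had 2 peaks in each library, over the same 2 regions, and the LncMyod siRNA libraries were the lowest. The 95% interval of the change in ASC against QSC was -0.43 to 0.28 for Hes1 and -0.40 to 0.29 for Hey1 in limma, so larger changes of covered length were outside it.

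**Figure D4:**
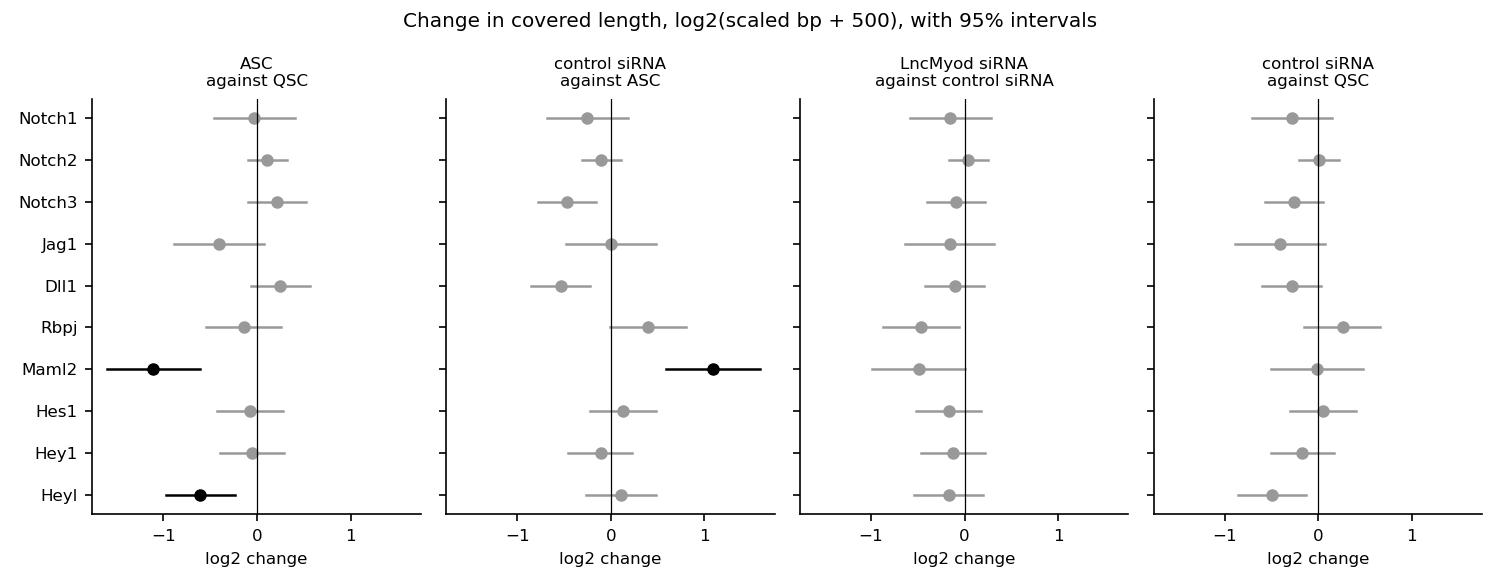
Log2 change in covered length, log2(scaled bp + 500), of each locus in 4 comparisons, with 95% intervals from limma; black marks passed an adjusted p of 0.05, grey marks did not. Black are Maml2 (-1.11) and Heyl (-0.61) in ASC against QSC and Maml2 (1.09) with control siRNA against ASC.

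The plot of log2 changes sets the 4 comparisons side by side. They share libraries, so they are not independent of each other. In ASC against QSC, 2 of 10 members passed the test, where 12.8% of all 27938 genes did. Both were lower, a direction taken by 5.25% of all genes. The libraries did not overlap for 3 members that were higher in ASC (Notch2, Notch3 and Dll1) and 2 that were lower (Maml2 and Heyl), against 33.1% and 21.7% of all genes. Without scaling, 1 was higher (Dll1) and 5 were lower (Jag1, Maml2, Hes1, Hey1 and Heyl), so these counts depend on scaling. The shares of all genes were not computed without scaling. The median change of the members was -0.066 and that of all genes 0.064.

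For control siRNA against ASC, 1 of 10 passed (Maml2, higher), where 3.99% of all genes passed and 2.28% were higher. Both control siRNA libraries lay above both ASC libraries for Rbpj and Maml2 (21.4% of all genes) and below them for Notch2, Notch3, Dll1 and Hey1 (34.6%). Without scaling they lay above for 4 members (Jag1, Rbpj, Maml2 and Hes1) and below for 2 (Notch3 and Dll1). Without scaling to the library total, the changes of Notch2 and Hey1 turned to 0.057 and 0.017. The median change was -0.05 for the members and -0.078 for all genes. When control siRNA was set against QSC, none of 10 passed in limma, where 16.9% of all genes did, and 1 (Heyl) had an unadjusted p under 0.05, a level reached by 32% of all genes. The control siRNA libraries lay above QSC for Rbpj (33.2% of all genes) and below for 6 members, namely Notch1, Notch3, Jag1, Dll1, Hey1 and Heyl (34.1%). Without scaling they also lay above for Hes1, and the same 6 were below. The median change was -0.22 for the members and 0.00 for all genes.

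With LncMyod siRNA against control siRNA none of 10 passed in limma, where 0.0215% of all genes did (6 genes). Rbpj alone had an unadjusted p under 0.05. Of the members, 9 of 10 had a negative change, as did 58.8% of all genes, and the median was -0.16 against -0.05. The LncMyod siRNA libraries lay below control siRNA for 5 members, namely Jag1, Rbpj, Maml2, Hes1 and Hey1 (24.4% of all genes), and above it for none (14.9%). The widest 95% interval among the 10 was that of Maml2 (-0.99 to 0.0036), and the narrowest was that of Notch2 (-0.17 to 0.25, limma adjusted p = 0.926). Summed over the 10 loci, covered length was 66.9 and 72.1 scaled kb in QSC, 60.2 and 57.4 in ASC, 59.1 and 66.3 with control siRNA and 54.1 and 53.6 with LncMyod siRNA. Unscaled, the sums were 66.2 and 66.3 kb in QSC, 60.3 and 47.5 in ASC, 60.5 and 67.7 with control siRNA and 67.6 and 52 with LncMyod siRNA. The LncMyod siRNA sums were the lowest and the QSC sums the highest only after scaling. Without scaling, the LncMyod siRNA libraries lay below both control siRNA libraries for 1 member, Jag1.

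The region over an annotated start differed in width at some members, a pattern chosen for description after the values were seen and given no test. The Dll1 region (chr17:15374725-15376833) covers the start within the gene and not the upstream one. It was covered over 1.99 and 1.74 scaled kb in QSC, 2 and 2.5 in ASC, 0.891 and 0.904 with control siRNA and 0.913 and 0.936 with LncMyod siRNA. Every cultured library was below every isolated one in covered length. The ratio of means with control siRNA against ASC was 0.399, against a median of 0.853 over 10735 start regions held by all 8 libraries. Of those, 1.1% had a ratio as low. The authors' fold of the Dll1 region, a level within each library, was higher in every cultured library than in every isolated one. Whether fold depends on the width of a peak was not tested. The fold was 2.77 and 2.9 in QSC and 3.17 and 3.14 in ASC. It was 4.38 and 4.12 with control siRNA and 3.9 and 4.05 with LncMyod siRNA. The Notch1 start region (chr2:26500856-26504156) was covered over 2.03 and 2.13 scaled kb in QSC, 3.18 and 3.79 in ASC, 1.09 and 1.97 with control siRNA and 1.06 and 0.911 with LncMyod siRNA. Its covered length was highest in both ASC libraries, at a ratio of 1.68 to QSC, a value reached by 4% of start regions. Each ASC library had a single unbroken peak there (42.994 to 46.175 kb from the lower gene end in replicate 1). The QSC libraries had separate peaks with similar outer bounds (42.954 to 43.169 and 44.377 to 46.165 kb in replicate 1).

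At Notch3 the start region was covered over 3.39 and 3.24 scaled kb in QSC, 3.03 and 3.66 in ASC, 2.09 and 1.61 with control siRNA and 1.67 and 2.19 with LncMyod siRNA, again with every cultured library below every isolated one. The highest authors' fold of any peak in it was 2.31 to 2.49 in QSC and ASC and 3.06 to 3.34 in culture. In culture the region was split into separate peaks, and the higher fold belonged to the one farther inside the gene. The peak at the start had a fold of 2.9 and 2.36 with control siRNA and 2.31 and 2.73 with LncMyod siRNA. Those values overlapped the QSC and ASC values. At Maml2 the region over the upstream start of the promoter table (chr9:13297898-13299485) lies just inside the annotated gene. It was covered over 1.59 and 1.69 scaled kb in QSC, 0.676 and 0.727 in ASC, 0.649 and 1.46 with control siRNA and 1.21 and 1.45 with LncMyod siRNA. The ratio of ASC to QSC there was 0.428, and 0.438% of start regions had one as low. A second Maml2 region, chr9:13296256-13297079 at the lower end of the gene, was covered over 736 and 823 bp, unscaled, in QSC, 553 and 514 in ASC, 581 and 597 with control siRNA and 686 and 592 with LncMyod siRNA. No scaled ratio was computed for this second region, so the ratio of 0.428 holds for the first alone. For Heyl, whose strand was not read from the sequence table, the region at the lower gene end had a ratio of 0.397, with 0.335% of start regions as low. Over all start regions the median width was 1.07 to 1.21 scaled kb in QSC and ASC and 0.821 to 0.955 in culture, so a part of any narrowing in culture was shared by the 10735 regions.

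**Figure D5:**
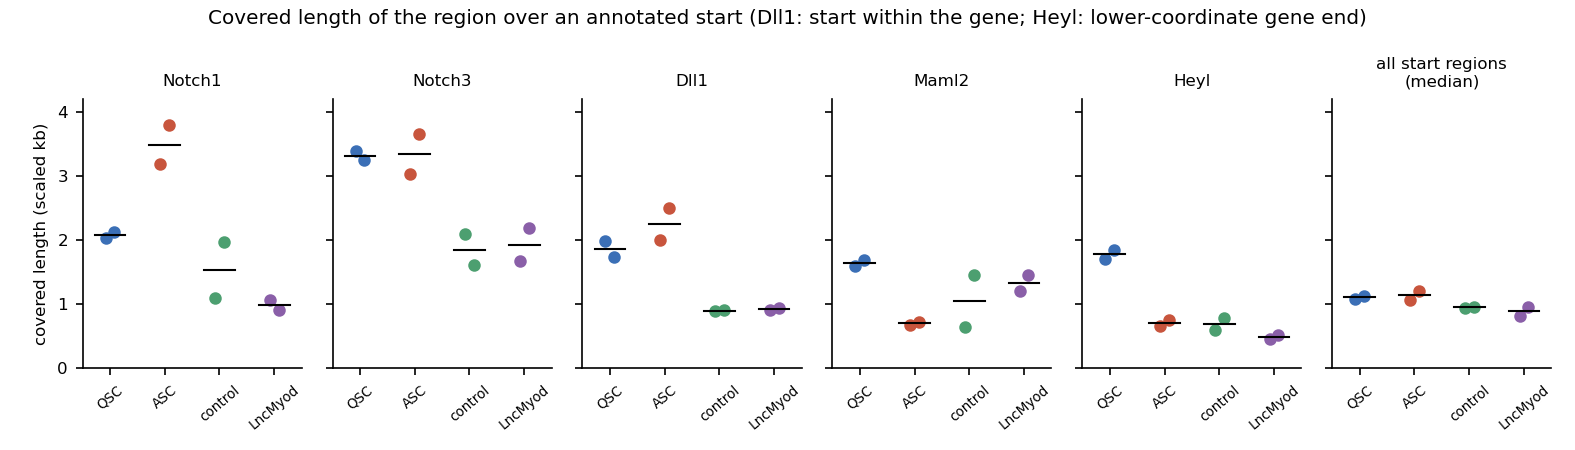
Covered length (scaled kb, linear axis from 0) of the region over an annotated start of Notch1, Notch3, Dll1 (the start within the gene) and Maml2 (the upstream start of the promoter table) and over the lower-coordinate gene end of Heyl, with the median over 10735 start regions at the right; points are libraries, lines are means of 2, and control and LncMyod stand for the 2 siRNAs. The 4 cultured Dll1 values (0.891 to 0.936) lie below the 4 isolated ones, and Heyl is high in QSC only.

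Together the 10 loci held 140 merged regions, of which 115 touched a gene body and 25 lay in flanks. All 8 libraries held 48 of them (34.3%), where 25% of all 141301 merged regions were so held. The share ran from 1 of 14 at Rbpj and 9 of 42 at Maml2 to 6 of 10 at Notch3 and 2 of 2 at Hey1. The regions held by all 8 were wider, with a median of 1187 bp against 425.5 bp for the remaining 92, as was the case over all merged regions (1137 against 509 bp). In ASC against QSC, 5 regions (3.57%) were held by both ASC and neither QSC library and 15 (10.7%) the other way, where 5.99% and 8.54% of all regions were. Of those 15, 8 were at Maml2 and 3 at Jag1.

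Against ASC, in culture with control siRNA, 20 regions (14.3%) were held by both control siRNA and neither ASC library and 3 (2.14%) the other way, where the shares of all regions were 11.7% and 2.64%, and 13 of the 20 were at Maml2. For control siRNA against QSC the counts were 18 and 6 (12.9% and 4.29%, all regions 15.5% and 8.09%). Between the siRNAs, 1 region was held by both LncMyod siRNA and neither control siRNA library (chr17:32169809-32170164 in the Notch3 flank, held in ASC as well) and 1 the other way (at Rbpj), shares of 0.714% each where all regions had 2.2% and 1.42%. These counts have no p, because 2 libraries against 2 cannot reach 0.05 in an exact permutation test. Of the 140 regions, 15 overlapped another gene of the annotation.

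A list of 44 other Notch pathway genes gave the surroundings of the members, and all 44 were tested. In ASC against QSC, 4 of the 44 rose (7.56% of all genes) and 2 fell (5.25% of all genes). An unadjusted p under 0.05 in limma was reached by 15 of the 44 (28.1% of all genes). The median change of the 44 was 0.14, against 0.064 over all genes. Those that rose included the receptor Notch4 (from 2.31 and 2.53 to 3.83 and 4.04 scaled kb, log2 change 0.60, SE 0.11, limma adjusted p = 0.0179) and Lfng, which adds sugars to Notch receptors (from 1.84 and 1.5 to 3.07 and 3.6, change 0.82, SE 0.20, adjusted p = 0.0391). With the gene body alone the changes of Notch4 and Lfng were 0.091 (adjusted p = 0.822) and 0.39 (0.302), and by peak number 0.21 (0.462) and 0.51 (0.0502). The third was Spen, a corepressor that binds Rbpj (change 0.44, SE 0.10, adjusted p = 0.0302). Mib1, the ubiquitin ligase that lets ligands be taken up in the signal-sending cell, fell from 4.91 and 5.24 to 2.66 and 2.02 scaled kb (change -0.98, SE 0.15, adjusted p = 0.011), and Numb, an inhibitor of Notch, fell from 5.85 and 7.19 to 3.93 and 4.49 (change -0.57, SE 0.14, adjusted p = 0.0435).

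In culture with control siRNA, 2 of the 44 rose against ASC and none fell, where 2.28% of all genes rose and 1.72% fell. Mib1 rose to 4.96 and 6.24 scaled kb (log2 change 1.10, SE 0.15, limma adjusted p = 0.0206). Both ASC libraries lay below all other libraries at Mib1, as at Maml2. Mib1 carried 4.64 and 4.49 with LncMyod siRNA, whereas at Maml2 the LncMyod siRNA libraries lay between ASC and the remaining groups. Pofut1, which adds fucose to the receptors, rose from 1.16 and 1.6 to 3.09 and 2.75 scaled kb (change 0.87, SE 0.18, adjusted p = 0.0458), but its change turned to -0.36 when peaks with a −log10 q under 5 were dropped, and to -0.15 with lists of equal length. That filter also turned the Mib1 change in ASC against QSC, to 0.13.

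Against QSC, the control siRNA libraries differed at more of them: 6 of the 44 rose (9.96% of all genes) and 2 fell (6.95%). Notch4 rose (log2 change 0.77, SE 0.11, limma adjusted p = 0.00743; 0.46 and 0.0869 with the gene body alone), as did Fbxw7, which marks the Notch intracellular part for degradation (change 0.73, adjusted p = 0.00892), and Numbl, a relative of Numb (change 0.64, adjusted p = 0.0125). The target gene Hey2 fell from 2.57 and 2.69 to 0.942 and 0.964 scaled kb (change -1.11, SE 0.22, adjusted p = 0.018; -0.10 and 0.827 with the gene body alone), and Psen2, a catalytic subunit of the protease that cuts the receptor, fell from 4.92 and 4.65 to 3.14 and 3.35 (change -0.50, adjusted p = 0.0354). With LncMyod siRNA against control siRNA none of the 44 passed in limma, where 0.0215% of all genes did, and 4 had an unadjusted p under 0.05, a level reached by 9.81% of all genes. The 12 changes of these genes named here missed the threshold in 88 of 192 alternative values and turned sign in 4, the fourth being Numbl by peak number (-0.021). Each of the 12 missed it when a certain library was left out, with 2 to 4 such libraries per change.

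Genes on other chromosomes whose covered length most resembled that of the 2 members that passed the test were found over the 8 libraries, by Pearson correlation of log2 scaled covered length. For Maml2 these were Lgi4 (r = 0.984), H6pd (r = 0.983) and Rassf3 (r = 0.98). Rassf3 carried 6.27 and 6.59 scaled kb in QSC, 4.11 and 2.92 in ASC, 6.29 and 6.73 with control siRNA and 4.98 and 4.99 with LncMyod siRNA. For Heyl they were Aff2 (r = 0.979), Tceal5 (r = 0.976) and Zfp874b (r = 0.973). Tceal5 carried 0 scaled kb in ASC replicate 2, control siRNA replicate 1 and both LncMyod siRNA libraries, and at most 0.762 elsewhere. Zfp874b carried 0.421 to 0.955, so both lay near the 500 bp added before the log. The genes named have the 3 highest coefficients over all tested protein-coding genes elsewhere. The 8 libraries share their depth with every gene, and the coefficients describe these libraries only.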

How the data were processed

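The authors called broad peaks on each library by itself, and the resulting list of each library was the starting point. The submitters' processing notes name MACS2 2.1.1, Bowtie2 2.3.2, Picard 2.9.2, SAMtools 1.3, bedtools 2.26.0 and Trimmomatic 0.36, with the build mm10. Settings and any shifting of read ends to allow for the transposase were not given in the sources used here. A peak in the deposited lists has the authors' fold enrichment (a ratio to local background), their −log10 p and −log10 q values and a display score; the deposited score was not used. Fold served to describe peaks within a library, and −log10 q to filter in 1 alternative. The files hold no reads, so sequencing depth is unknown and counting error cannot be stated. Absence of a peak may reflect depth.

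Covered bp per locus (gene positions from RefSeq GRCm38.p6) were scaled to the mean library total. A gene was tested if 2 or more libraries had 200 or more covered bp there (27938 genes). limma 3.58.1 in R 4.3.3 fitted the 4 group means of log2(scaled bp + 500) with a trended prior. This scale understates changes of loci with little covered length, and neighbouring loci can share peaks. Peaks that overlapped or touched were merged into 141301 regions, and a library held a region when 1 bp overlapped. Interval bounds are at 95%.

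The members and lists were chosen with earlier results of these data known. All members are named, with up to 3 other pathway genes per direction and comparison in order of p, and the 3 most similar genes for each member past the threshold. Promoters of Hes1, Hey1 and Heyl and 300 bases of group-specific regions, which the plan named, were not used here. Alternatives were scaling, quantile normalization, pseudocount, peak number, a stricter threshold, equal list lengths, other locus bounds, a fit on 4 libraries, a replicate block and leaving out each library.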

Additional observations from a re-analysis of the deposited data

How the results depend on the processing

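The direction of the 3 changes that passed the test (Maml2 and Heyl in ASC against QSC, Maml2 with control siRNA against ASC) held in all 16 alternatives each. Leaving out a library left 1 sample in an arm, which was then assumed to vary like the other groups. The members called in ASC against QSC were 0 without scaling, 1 with a pseudocount of 100 bp, with the gene body alone or with the fit on the 4 libraries compared, 3 by peak number (Jag1 and Maml2 lower, Notch3 higher at 0.57, adjusted p = 0.026), 2 with 50 kb flanks (Maml2 lower, Dll1 higher at 0.43, adjusted p = 0.0377), 4 with a −log10 q of at least 5 (Notch1 and Notch2 higher, Heyl and Maml2 lower) and 0 to 2 when a library was left out. In control siRNA against ASC the 1 call was Dll1 (lower) and not Maml2 (adjusted p = 0.0576) with the gene body alone, and became 0 without scaling, with the 4-library fit and at the low end of 0 to 1 when a library was left out. Against QSC, 1 member in control siRNA libraries was called by peak number (Jag1), with the stricter threshold or lists of equal length (Heyl), and with 50 kb flanks (Notch3), all lower.

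After scaling, the deviations of same-numbered libraries from their group means were weakly correlated (0.00783 to 0.0964). Before scaling, replicate 1 held more peaks than replicate 2 in every group. Whether the numbers pair the libraries is therefore not settled. With a replicate block, 1 member was called in ASC against QSC (Maml2) and 0 with control siRNA against ASC, where 551 genes were called, and 0 genes were called between the siRNAs.

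Over all genes, the number called in ASC against QSC was 3580 and became 1820 without scaling, 7086 with 50 kb flanks and 732 to 3026 without a library. For control siRNA against ASC, 1116 became 368 without scaling, 2066 with the stricter threshold, 2979 with equal list lengths, 1757 with 50 kb flanks, 0 with the 4-library fit and 1 to 776 without a library. Against QSC, 4726 became 7848 with 50 kb flanks and 1028 to 1436 without a library. Between the siRNAs, 6 became 38 without scaling, 10 with quantile normalization or a pseudocount of 2000 bp, 187 by peak number, 14 with the stricter threshold, 23 with equal list lengths, 50 with the gene body alone, 3 with 50 kb flanks, and 0 with the 4-library fit or without any 1 library. The share of called genes that were higher was 59% in ASC against QSC and 48.4% after quantile normalization. For control siRNA against ASC it was 57%, and 76.9% without scaling, which also moved the median change of all genes from -0.078 to 0.038.

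Group-specific regions in the 10 loci numbered 20 in ASC against QSC (25 to 31 without a library), 23 with control siRNA against ASC (29 to 35) and 2 between the siRNAs (9 to 16, and 4 with equal list lengths). Changes that turned sign missed the threshold in limma after turning, as named here. In ASC against QSC this was Notch3 with the stricter threshold (-0.23) and 50 kb flanks (-0.071), and Mib1 with the stricter threshold (0.13). For control siRNA against ASC it was Notch2 without scaling (0.057), Hey1 without scaling (0.017), with equal list lengths (0.075) and with 50 kb flanks (0.11), Heyl without ASC replicate 2 (-0.06) or control siRNA replicate 2 (-0.029; -0.06 to 0.28 without any 1 library), and Pofut1 with the stricter threshold (-0.36) and equal list lengths (-0.15). Between the siRNAs it was Jag1 by peak number (0.023), Hes1 with the stricter threshold (0.17) and equal list lengths (0.10), and Hey1 with the stricter threshold (0.094). For control siRNA against QSC it was Notch1 by peak number (0.031) and with the stricter threshold (0.36), Notch3 by peak number (0.26) and with the gene body alone (0.013), Dll1 by peak number (0.14) and with 50 kb flanks (0.055), Rbpj with the stricter threshold (-0.0063), Numbl by peak number (-0.021), and Maml2 without scaling (0.081), after quantile normalization (0.12), without QSC replicate 2 (0.082) and without control siRNA replicate 1 (0.15; -0.18 to 0.15 without any 1 library). The cause was not tested for any of these. Depth is unknown, and short lists such as that of ASC replicate 2 limit what can be called absent.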
